A study of Mus musculus with 6 samples.

Results

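Troponin is the calcium switch of striated muscle. It was read here through its 8 subunit genes, taken as those named Tnnc, Tnni or Tnnt with an isoform number, and every probe set that the platform annotation pairs with exactly 1 of them. The 8 genes were covered by 12 probe sets, of 18194 named genes and 34958 probe sets with 1 gene in the series. Tnnt2 and Tnni2 had 3 probe sets each and the other members 1. For a gene with several, the brightest on average stood for it, and the others are given beside it.

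The cells were mouse C2C12, a myoblast line that forms multinucleated myotubes when serum is lowered. Parental cells gave 4 arrays: growth medium (10% fetal bovine serum), then day 0, just after the change to differentiation medium (2% horse serum), day 2 and day 4. Another 2 arrays, both of day 0, held stable lines made with a lipid transfection reagent and 500 µg/ml G418, one carrying a hairpin against Rp58 (shRp58) and one a control, which the labels call a LacZ vector in one field and a control hairpin in another. Rp58, now named Zbtb18, is a zinc finger repressor of transcription. The labels do not say whether the stable lines were pools or clones. Each group was 1 array, so no difference below has a replicate check or a p-value, and the word higher or lower states a difference between 2 arrays.

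In the sarcomere, actin, tropomyosin and the troponin complex form the thin filament. Troponin C binds calcium, troponin I holds actin and myosin apart at rest, and troponin T ties the complex to tropomyosin. Skeletal muscle fibres use slow or fast isoforms of each: Tnnc1, Tnni1 and Tnnt1 are the slow genes (Tnnc1 also serves the heart), and Tnnc2, Tnni2 and Tnnt3 the fast ones. Tnni3 and Tnnt2 are the cardiac genes, and Tnnt2 is also known from embryonic skeletal muscle.

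The troponin genes lie in pairs that join an I gene to a T gene. In the RefSeq gene order of the GRCm38.p6 assembly, Tnnt1 and Tnni3 are direct neighbours, only Lad1 lies between Tnni1 and Tnnt2, and Lsp1 and Prr33 lie between Tnni2 and Tnnt3. Tnnc1 and Tnnc2 have no troponin gene among the 3 nearest genes on either side. RefSeq promoter windows of that assembly, each 300 bases from 250 before to 50 after a gene's start, were held for 6 of the 8 members, in 8 windows. Tnni2 and Tnnt3 had no entry. The 4 below are shown because the C genes and Tnnt1 carry the hexamer CATCTG or its complement CAGATG, which is the core of the Rp58 recognition sequence, and Tnni3 is the member with the lowest values. Capitals mark each E-box, CANNTG, the motif bound by MyoD-family factors.
Tnnc1, chr14:31208062-31208361, plus strand: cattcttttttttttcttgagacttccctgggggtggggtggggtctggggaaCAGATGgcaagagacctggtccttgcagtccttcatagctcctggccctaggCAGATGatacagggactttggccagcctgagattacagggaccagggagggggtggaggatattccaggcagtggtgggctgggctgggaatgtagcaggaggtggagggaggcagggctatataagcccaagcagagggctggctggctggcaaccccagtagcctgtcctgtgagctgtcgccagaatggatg
Tnnc2, chr2:164779685-164779984, minus strand: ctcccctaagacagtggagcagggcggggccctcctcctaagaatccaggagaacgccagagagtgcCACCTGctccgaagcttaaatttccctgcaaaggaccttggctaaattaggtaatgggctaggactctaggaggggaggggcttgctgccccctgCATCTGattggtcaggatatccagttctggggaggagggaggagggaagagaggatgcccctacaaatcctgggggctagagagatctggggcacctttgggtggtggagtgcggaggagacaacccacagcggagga
Tnnt1, chr7:4515926-4516225, minus strand: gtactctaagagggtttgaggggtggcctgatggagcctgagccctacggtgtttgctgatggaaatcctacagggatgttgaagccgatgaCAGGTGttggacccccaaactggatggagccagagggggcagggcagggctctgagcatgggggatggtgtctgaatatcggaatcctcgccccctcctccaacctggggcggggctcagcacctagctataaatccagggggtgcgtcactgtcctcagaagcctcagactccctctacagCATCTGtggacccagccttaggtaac
Tnni3, chr7:4522479-4522778, minus strand: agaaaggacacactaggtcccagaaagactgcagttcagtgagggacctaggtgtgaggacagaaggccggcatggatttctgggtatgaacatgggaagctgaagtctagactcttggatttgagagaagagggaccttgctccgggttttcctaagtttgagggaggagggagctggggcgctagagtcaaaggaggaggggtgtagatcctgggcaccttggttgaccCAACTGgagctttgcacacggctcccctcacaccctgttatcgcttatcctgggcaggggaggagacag

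An E-box was found in 8 of the 8 member windows, where 72.3% of all 32851 windows held one, so this is the common state of a window of this length. The hexamer CATCTG, searched on both strands and itself an E-box, was in the windows of 3 genes and in 17.2% of all windows. It stood 197 and 145 bases before the start of Tnnc1, 88 before that of Tnnc2 and 24 after that of Tnnt1. The longer string ACATCTG was in 0 member windows and 4.43% of all. The MCAT motif CATTCC was in the windows of Tnnc1 and Tnnt2 (14.7% of all windows) and TATAAA in that of Tnnt1, 30 bases before the start (13.6%). The MEF2 and CArG motifs were in none of the 8 windows and in 0.557% and 1.63% of all. These matches describe letters in a short window and do not show binding.

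Values are the authors' log2 RMA values, so 1 unit is a 2-fold difference. The 4 time-course arrays had medians near 8.26 and 8.27 and the 2 stable-line arrays 7.15, and the sets were therefore read apart. Genes that reached 7.95, the median of the whole matrix, on at least 1 array were kept, which left 13242. All 8 members passed, Tnni3 through the day 2 array only. Myotube markers were high as labelled: Myh3, the embryonic myosin, read 8.09 in growth medium and 14.40 at day 2, and the fusion protein gene Mymk 9.94 and 13.99. Zbtb18 was 0.53 lower with shRp58 (11.69 and 11.16), less than 2-fold.

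Both troponin C genes were above the middle of the growth medium array, at percentiles 79.6 (Tnnc1) and 69.4 (Tnnc2). By day 2 they were near the top of the arrays. Tnnc1 read 10.21 in growth medium, 13.39 on the day 0 array, then 14.73 and finally 14.86 at day 4. Tnnc2 read 9.42, 12.96, 14.51 and 14.79 on the same arrays. Growth medium was the lowest array for each, and the largest step came before day 0. From growth medium to day 4 the difference was 25.2-fold for Tnnc1 and 41.3-fold for Tnnc2, of which 68.3% and 66.0% on the log2 scale was present at day 0.

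The skeletal troponin I genes followed the same order of arrays. Tnni1, the slow form, read 9.79, 12.90, 14.56 and 14.83, a 32.9-fold difference from end to end. Tnni2, the fast form, read 8.37, 11.63, 14.12 and 14.50 by its probe set 1416889_at, which is 69.8-fold. The 2 other Tnni2 probe sets, built on the expressed sequence tag AV007148, gave smaller differences. By 1438609_x_at the values were 9.56, 10.94, 12.56 and 12.81, and by 1438608_at 6.31, 6.29, 7.34 and 7.66. All 3 were highest at day 4, but the last stayed under 7.95 throughout and did not differ between growth medium and day 0 beyond -0.02. The suffix x marks probe sets whose probes can also match other sequences.

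Cardiac troponin I, Tnni3, stayed dim. Its 4 parental values were 6.51, 7.28, 8.22 and 7.71, and it was the one member lower at day 4 than at day 2 (-0.51). Its percentile among all probe sets of an array ran from 17.7 to 49.0 over the time course, so no more than a dim signal was read and the sizes of its differences are not exact. Of 11 cardiac markers 6 were kept, and 0 of those 6 were at least 2-fold apart in any comparison. Over all 11 the mean ranged from 7.83 to 8.07 in parental cells. The atrial light chain Myl7 and the cardiac myosin Myh6 stayed below 7.95 on all 6 arrays, while Gata4 and Nkx2-5 stayed above it on all 6. Gata4 read 9.92 in growth medium and 9.16 at day 4, and Nkx2-5 9.44 and 9.06.

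Troponin T held both the widest and the narrowest well-measured differences. Tnnt3, the fast form, read 7.83, 11.29, 14.03 and 14.54 from growth medium to day 4. This was 105-fold, the second-largest difference between those arrays among the 13242 kept genes, and it starts just below the filter value. Tnnt1, the slow form, read 8.78, 11.46, 13.83 and 14.30, or 45.7-fold. Tnnt2, the cardiac and embryonic form, was already at 11.77 in growth medium and read 13.07, 14.41 and 14.62 later, or 7.23-fold. Its other probe sets moved alike: 1424967_x_at read 11.46, 12.55, 14.14 and 14.31, and the dimmer 1440424_at 7.50, 8.67, 9.75 and 9.98. Of the 3 genes, Tnnt2 thus showed the smallest difference by each of its probe sets.

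**Figure D1:**
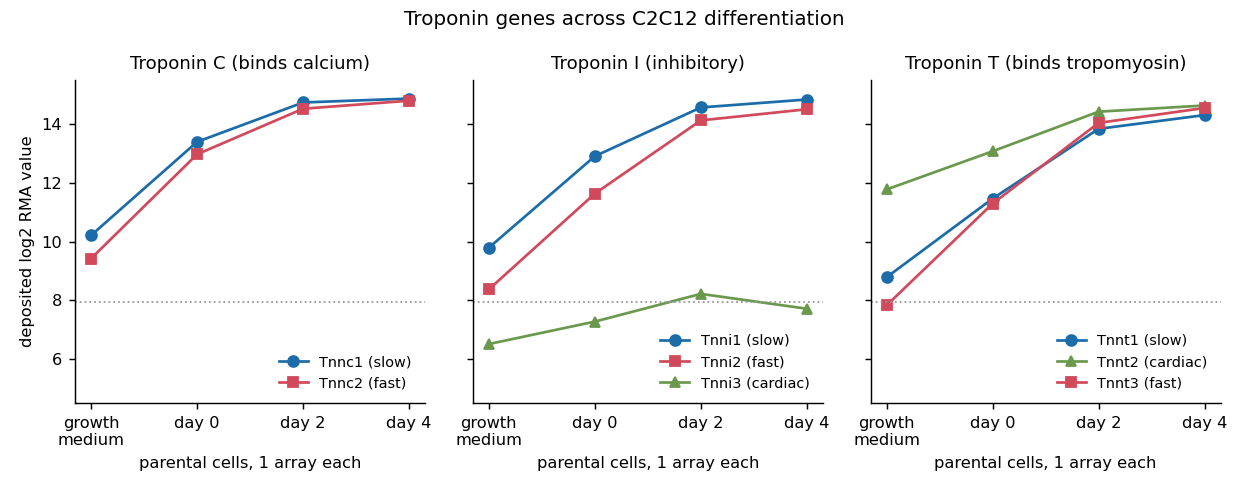
Deposited log2 values (vertical axis) of the probe set that stands for each troponin gene, on the 4 parental arrays (horizontal axis), by subunit; blue circles are slow, red squares fast and green triangles cardiac genes, and the dotted line is the filter value of 7.95. The 6 slow and fast genes start between 7.83 and 10.21 and end between 14.30 and 14.86, Tnnt2 starts at 11.77, and Tnni3 stays near the dotted line.

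Day 0, read just after the change to differentiation medium, was set against growth medium. What part the medium or any other difference between the 2 cultures had in these values was not tested. Of the 8 members 7 were at least 2-fold higher and 0 lower, where 2.91% of kept genes were higher and 0.317% lower. The median over members was 3.15, against 0.10 over all kept genes. Tnnc2 (3.54), Tnnt3 (3.46), Tnni2 (3.26), Tnnc1 (3.18), Tnni1 (3.11) and Tnnt1 (2.67) all ranked among the 21 highest of the kept genes. Tnnt2 differed by 1.30 and Tnni3 by 0.76. By probe set, 10 of 12 were 2-fold higher, where 2.02% of all probe sets with 1 gene were.

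From day 0 to day 2 again 7 of 8 were at least 2-fold higher and 0 lower, against 2.67% of kept genes higher and 2.96% lower. The median was 1.60, against -0.01 over all kept genes. The order of sizes was another one than at the earlier step. Tnnt3 (2.74), Tnni2 (2.49) and Tnnt1 (2.37) came first, then Tnni1 (1.66), Tnnc2 (1.55), Tnnt2 (1.35), Tnnc1 (1.34) and Tnni3 (0.94). Tnnc2 and Tnnc1 thus differed less here than at the earlier step (3.54 and 3.18).

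Between day 2 and day 4 none of the 8 was 2-fold apart; 0.808% of kept genes were higher and 0.808% lower by that much. Differences of the other 7 beside Tnni3 ran from 0.13 (Tnnc1) to 0.51 (Tnnt3), and the median over all 8 was 0.27. At both days 7 members lay in the top 1% of probe sets, and none did in growth medium or at day 0. At day 4 those 7 lay between 0.23 and 0.80 below the brightest gene of the array. How much of the small late differences reflects this upper end of the scale was not tested. Day 4 against day 0 gave 7 of 8 at least 2-fold higher (3.83% of kept genes) and 0 lower (5.66%), from 1.47 (Tnnc1) to 3.25 (Tnnt3), with Tnni3 at 0.44. From growth medium to day 4, 8 of 8 were at least 2-fold higher (8.09% of kept genes) and 0 lower (5.33%). This count includes Tnni3 (1.20), which read 6.51 in growth medium and 7.71 at day 4. Both values lie below the filter value, and Tnni3 was kept through the day 2 array only, so its call is not a firm one.

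Because levels of different probe sets cannot be compared, isoforms were set against each other by how their log2 ratio differed between arrays. By the brightest probe set of each gene, the fast gene gained on the slow gene in each subunit. Relative to growth medium, Tnnc2 over Tnnc1 was 0.36 higher at day 0, 0.58 at day 2 and 0.71 at day 4. Tnnt3 over Tnnt1 was 0.79, 1.16 and 1.20 higher at those days. Tnni2 over Tnni1 was 0.15, 0.98 and 1.08 higher by the brightest Tnni2 probe set. This last direction depended on the probe set: with 1438609_x_at the day 4 minus growth medium value was -1.80, and with 1438608_at -3.69. After quantile normalization the day 4 values were 0.75, 1.30 and 1.19 in the order C, T and I, and after loess normalization 0.72, 1.21 and 1.10. By these probe sets the slow and fast genes all read 14.30 to 14.86 at day 4, near the brightest gene of the array. How much of the ratio differences reflects this upper end of the scale was not tested.

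The cardiac genes lost ground against the slow gene of the same subunit. Tnnt2 over Tnnt1 differed from growth medium by -1.38 at day 0, -2.40 at day 2 and -2.66 at day 4, although Tnnt2 itself was higher at each step. Tnni3 over Tnni1 differed by -3.84 at day 4, with Tnni3 dim throughout. Tnnt2 started at 11.77 in growth medium and at day 4 lay 0.47 below the brightest gene of the array. What part these ends of the scale have in the ratios was not tested. For Tnnt2 over Tnnt1 the day 4 value was -2.78 after quantile and -2.69 after loess normalization, and for Tnni3 over Tnni1 -3.86 and -3.71.

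**Figure D2:**
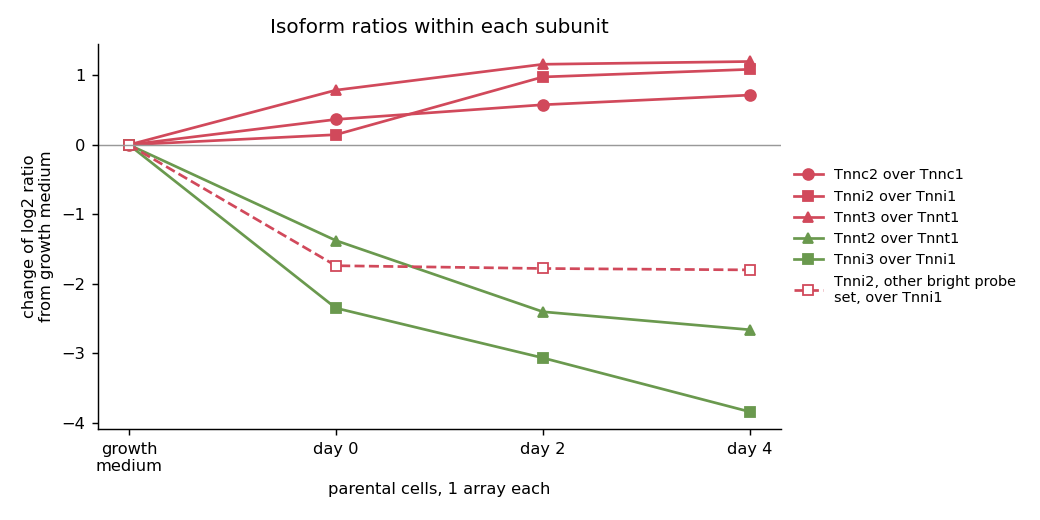
Change of the log2 ratio between troponin isoforms from its value in growth medium (vertical axis), on the 4 parental arrays (horizontal axis); red lines set fast over slow genes and green lines cardiac over slow genes, with the dashed line for the second-brightest Tnni2 probe set. Fast over slow ratios end 0.71 to 1.20 above the start and cardiac over slow ratios at -2.66 and -3.84, while the dashed line ends at -1.80.

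Other genes of the contractile apparatus give the setting. Of 25 kept thin filament partners (actins, tropomyosins, nebulin, leiomodins and capping proteins) 7 exceeded growth medium 2-fold or more at day 0, 9 at day 2 against day 0 and 2 at day 4 against day 2, with 0 lower each time. Of all kept genes 2.91%, 2.67% and 0.808% were higher by that much at these steps. The medians of the partners were 0.52, 0.58 and 0.23. Nebulin (Neb), the thin filament ruler, was 3.73 higher at day 0 and a further 2.39 at day 2, while Tpm2, a tropomyosin that troponin T binds, differed by 0.21 and 0.31. Tropomyosins were bright from the start: Tpm1 read 13.60 and Tpm2 12.93 in growth medium. From growth medium to day 4 the tropomyosins differed by 0.91 (Tpm1), 0.75 (Tpm2), -0.53 (Tpm3) and -0.66 (Tpm4), against 1.20 (Tnni3) to 6.71 (Tnnt3) for the troponin genes. At single steps the ranges overlapped: day 4 minus day 0 was 0.44 for Tnni3 and 0.81 for Tpm1, and day 4 minus day 2 was 0.13 for Tnnc1 and 0.23 for Tpm2.

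Other genes of fast fibres (myosin chains, Mybpc2, Atp2a1, Pvalb and Actn3) moved partly in the same way. Of 8 kept fast-fibre genes 5 stood 2-fold or more above growth medium at day 0 (2.91% of kept genes) and 6 above day 0 at day 2 (2.67%). Of 6 slow-fibre genes this held for 1 and 2, Myh7 at the former step (1.56) and Myh7 and Myl2 at the latter (3.15 and 4.58). At day 0 the slow troponins differed from growth medium by 2.67 to 3.18, and the slow light chain Myl2 by 0.58. From day 2 to day 4, a step at which no troponin gene was 2-fold apart, genes of every fibre class were: 3 of 8 fast (Myh4 3.28, Pvalb 1.79 and Atp2a1 1.26), 2 of 6 slow (Mybpc1 by 1.12, and Myh7 from 11.81 to 13.29) and 1 of 4 developmental (Myh8 2.36). Of all kept genes 0.808% were higher by that much. Myh4 and Pvalb read 8.36 and 9.34 at day 2, where 7 troponin genes already lay in the top 1% of probe sets. What part this has in the contrast was not tested.

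Fibre type factors are transcription factors, cofactors and signalling genes that set slow or fast identity. Of 25 kept regulators 2 exceeded growth medium by 2-fold at day 0 (2.91% of kept genes), Myog (2.28) and Mef2c (1.59). The count past 2-fold lower was 0 (0.317% of kept genes), and the median was 0.22. At day 2 against day 0 the counts were 3 higher (Mef2c, Tbx15 and Ppargc1a) and 1 lower (Vgll2), where 2.67% and 2.96% of kept genes were. From growth medium to day 4, 6 of the 25 were at least 2-fold higher, where 8.09% of kept genes were: Mef2c (5.27), Myog (3.42), Tbx15 (2.30), Mef2a (1.54), Mef2d (1.31) and Ppp3ca (1.19). Sox6, a repressor of slow genes, differed by -0.87 at day 0 and 0.42 at day 2, and Prox1, which favours slow genes, read 8.15 in growth medium, 7.15 at day 0 and 7.80 at day 2; both were dim.

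The genes whose course was most like that of each member were found by the root mean square distance between profiles over the 4 parental arrays, each centred on its mean, in log2 units. Nearest to Tnnc1 was Mylpf, the fast regulatory light chain (0.022), and to Tnnt1 Myom2, an M-band protein (0.023). Nearest to Tnni2 was the myosin-binding protein Mybph (0.067), to Tnnt3 the kelch protein Klhl41 (0.073), to Tnni1 the reticulum protein Srl (0.16) and to Tnnc2 Tnni1 (0.16). Members held 4 of the 24 places. Tnni3 and Tnnt2 were nearest to Tbc1d24 (0.023) and Dclk1 (0.051) and had no sarcomere gene among their 3 nearest. With 4 arrays and 13242 genes, near profiles are found readily, and a small distance says only that the values match.

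Several genes next to the troponins on the chromosome had another course. Lad1, between Tnni1 and Tnnt2, differed by 0.13 from growth medium to day 4, where its neighbours differed by 5.04 and 2.85. Lsp1, between Tnni2 and Tnnt3, differed by 0.93, against 6.13 and 6.71. Ube2c, a mitotic ubiquitin-conjugating enzyme that is the nearest gene on one side of Tnnc2, differed by -3.51 over the same span. Tnni3 and Tnnt1, which are direct neighbours, differed by 1.20 and 5.51.

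The stable lines were compared to ask how troponin genes read when Rp58 is targeted by a hairpin. Of the 8 members 5 were at least 2-fold lower with shRp58 and 0 higher, where 0.619% of kept genes were lower and 0.0529% higher. All 8 lay below 0, with a median of -1.07 against -0.01 over all kept genes. This comparison rests on 1 array of each line, so the hairpin and any other difference between the lines cannot be told apart.

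Each member was brighter on the control array. Tnnt3 read 12.48 on the control array and 11.13 on the shRp58 array (-1.34), and Tnni2 12.55 and 11.22 (-1.33). Tnnt1 read 12.07 and 10.79 (-1.28). Tnnc2 read 13.73 and 12.66 (-1.07) and Tnni1 13.49 and 12.43 (-1.06). These were the 5 past 2-fold, from 2.09-fold to 2.53-fold. Tnnt2 read 13.29 and 12.35 (-0.94), Tnnc1 13.86 and 12.96 (-0.89) and Tnni3 6.94 and 6.30 (-0.64). By the brightest probe sets, all 3 fast genes but 2 of 3 slow genes and 0 of 2 cardiac genes passed 2-fold. This split rests on the 2-fold line and on the probe sets used, as the values below show.

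Tnnc2 and Tnni1 stood close to the 2-fold line, and after quantile normalization they were at -0.91 and -0.89, which left 3 members past it. The other probe sets gave -1.03 and -0.72 for Tnnt2 and -0.87 for Tnni2 by 1438609_x_at. The dim 1438608_at read 5.21 on both arrays. It was among 1032 of 45101 probe sets that had the same value on the pair to within 0.0001, at whatever level.

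**Figure D3:**
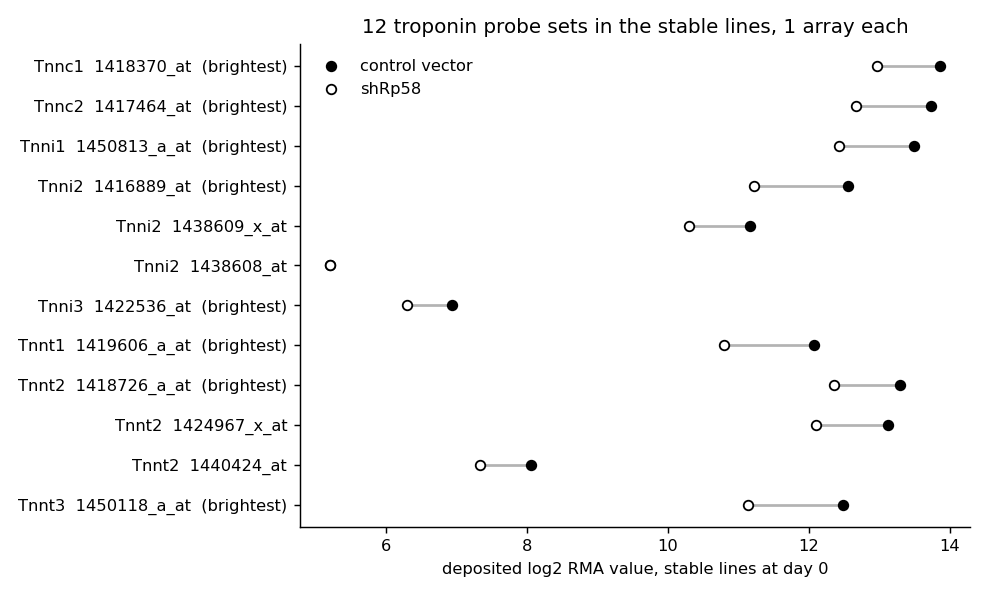
Deposited log2 values (horizontal axis) of the 12 troponin probe sets (vertical axis) in the control-vector line (filled) and the shRp58 line (open) at day 0, 1 array each. The open point lies left of the filled one for 11 probe sets, and both coincide at 5.21 for 1438608_at.

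Isoform ratios were also compared between the lines. Tnnt3 over Tnnt1 differed by -0.06, Tnnc2 over Tnnc1 by -0.18 and Tnni2 over Tnni1 by -0.27, the last turning to 0.20 and 1.06 with the other Tnni2 probe sets. Within subunits T and I, these cardiac over skeletal ratios stood higher with shRp58: Tnnt2 over Tnnt1 by 0.34, Tnnt2 over Tnnt3 by 0.40 and Tnni3 over Tnni1 by 0.42. Across subunits this did not always hold, since Tnnt2 differed by -0.94 and the slow gene Tnnc1 by -0.89. Tnni3 was under 7.95 on both arrays (6.94 and 6.30). Over all kept genes the robust standard deviation of the difference of single genes between the lines was 0.17. No such spread was computed for ratios. After loess normalization the first 3 were -0.06, -0.18 and -0.27, and after quantile normalization -0.04, -0.14 and -0.31. In the order given, the cardiac ratios were 0.34, 0.40 and 0.36 after loess and 0.40, 0.44 and 0.28 after quantile normalization.

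The size of the shRp58 difference ran with the size of the day 0 to day 2 difference in parental cells, which shares no array with it. Over the 8 genes Pearson's r was -0.96 and Spearman's rho -0.98, and without Tnni3 they were -0.98 and -0.96. The genes are not independent points, since all were read on the same arrays. The relation was not computed over all kept genes, so whether it is particular to the troponins was not tested. The drop with shRp58 came to between 48.9% (Tnnt3) and 69.9% (Tnnt2) of the parental day 0 to day 2 difference on the log2 scale. Both differences come from the same probe sets. The shRp58 difference against the control-vector level gave r = -0.51 and rho = 0.17 over the 8 genes, and r = 0.87 and rho = 0.75 without Tnni3, the dimmest, so the sign rests on that gene. What part the level has in this order was not tested.

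**Figure D4:**
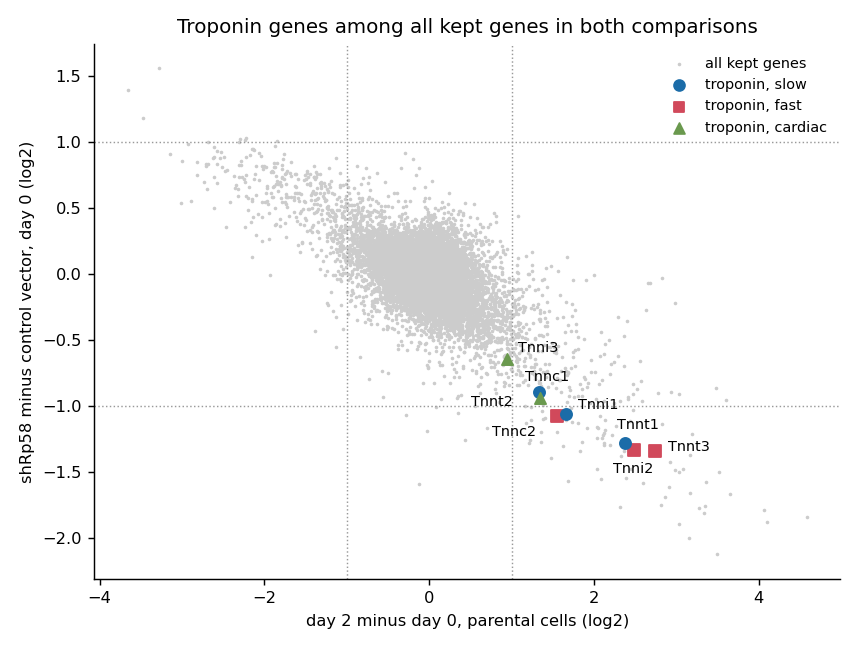
Day 2 minus day 0 in parental cells (horizontal axis, log2) against shRp58 minus control vector (vertical axis, log2) for 13242 kept genes (grey) and the 8 troponin genes (colours by class); dotted lines mark 2-fold. The troponin genes lie at the lower right, from Tnni3 at 0.94 and -0.64 to Tnnt3 at 2.74 and -1.34.

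Some other lists also stood lower with shRp58, where 0.619% of kept genes were at least 2-fold lower. Of 7 myotube markers 4 were at least 2-fold lower with shRp58 (median -1.04), while 0 of 6 myoblast markers were (median -0.13). In bulk cultures, fewer myotubes and less RNA of these genes per myotube cannot be told apart. Of 25 thin filament partners 5 were 2-fold lower (median -0.41): Lmod2 (-1.77), Lmod3 (-1.55), Neb (-1.55), Klhl41 (-1.13) and Nrap (-1.08). The tropomyosins ranged from -0.50 (Tpm1) to 0.15 (Tpm4). For developmental thick filament genes the median was -1.55 and 3 of 4 passed 2-fold. The differences of Myh8 (-2.12) and of Myh7, which read 10.12 and 8.12, were larger than that of any troponin gene. Markers of other cells differed by list. The median was -0.21 over 4 kept adipocyte markers, 0.07 over 6 cardiac and 0.14 over 2 osteoblast markers, with 0 of them past 2-fold. The 4 kept fibroblast markers had a median of -0.52 (Dcn -0.95, Col1a1 -0.92, Pdgfra -0.12 and Lum 0.19). The 8 kept smooth muscle markers had a median of -0.33, from -0.84 (Tagln) to 0.19 (Synm), and 2 of them lay above 0. In either list 0 were past 2-fold. In parental cells 3 of the 4 fibroblast markers exceeded growth medium by 2-fold or more at day 4 (8.09% of kept genes), Dcn by 3.91. The part of these other cell markers in the troponin differences was not tested. Of the 25 regulators Mef2c alone was 2-fold lower (-1.16). The 17 genes, other than members, that matched a troponin in time-course profile were all below 0 with shRp58, from -1.55 (Neb) to -0.38 (Lpin1), 9 of them by at least 2-fold, where 51.3% of kept genes lay below 0.

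To place the stable lines beside parental cells, the 6 arrays were quantile normalized together. This crosses the 2 sets of arrays, which also differ in transfection and selection, so it is a description. The control-vector line lay above parental day 0 for all 8 members, from 0.82 (Tnni3) to 2.06 (Tnnt3), and 6 of 8 were at least 2-fold higher, where 1.59% of kept genes were. The shRp58 line also lay above parental day 0 for all 8, by 0.13 (Tnnt2) to 0.84 (Tnnt3), with 0 past 2-fold (0.393% of kept genes). Tnnt1, for example, read 11.05 in parental cells at day 0, 11.40 with shRp58, 12.58 with the control vector and 13.60 in parental cells at day 2. So, on this scale, shRp58 cells were the nearer to parental day 0 for every member, and control-vector cells stood between parental day 0 and day 2.

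With each array centred on its median instead, both lines stayed above parental day 0 for all 8, by 0.78 to 2.30 for the control vector. The control vector then also exceeded parental day 2 for 4 members, Tnnc1, Tnnc2, Tnni1 and Tnnt2, so its place relative to day 2 depends on the scaling. Zbtb18 had the same order after quantile normalization: 11.49 in parental cells at day 0, 11.75 with shRp58, 12.21 with the control vector and 12.62 at day 2.

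**Figure D5:**
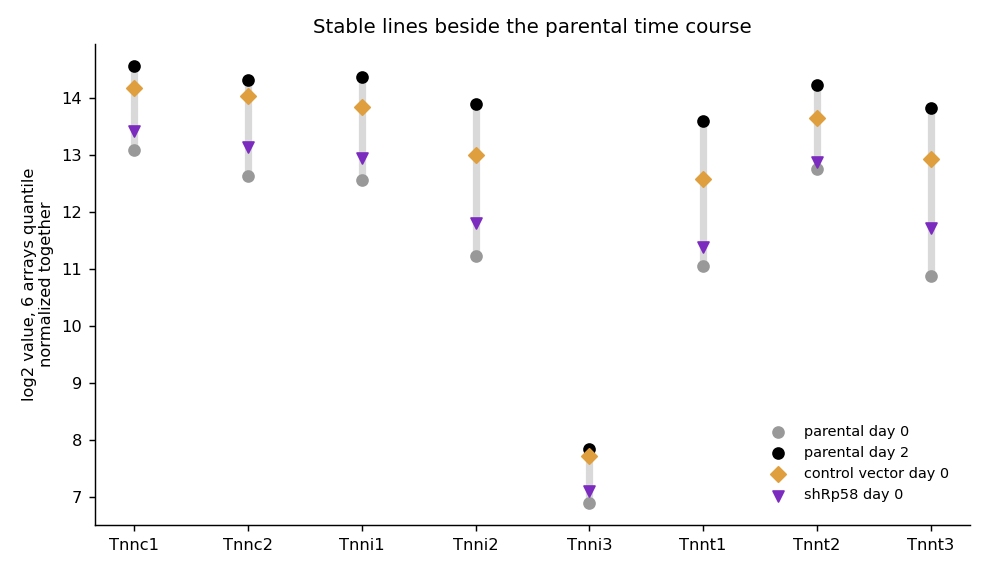
Log2 values after quantile normalization of all 6 arrays together (vertical axis) for the 8 troponin genes (horizontal axis), in parental cells at day 0 and day 2 and in the 2 stable lines at day 0, 1 array each. For every gene the order from low to high is parental day 0, shRp58, control vector, parental day 2.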

How the data were processed

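Total RNA of 6 C2C12 cultures was read on Affymetrix mouse genome arrays. The deposited values are log2 intensities that the authors made with the RMA algorithm, per the series' design text. The sources used here do not give the software or say whether arrays were normalized jointly. Medians of 8.26 to 8.27 on 4 arrays and 7.15 on 2 show sets of different scale.

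Groups came from sample titles. Of 45101 probe sets, 34958 had 1 annotated gene, 932 several and 9211 none here. Entrez IDs of all 8 members matched the RefSeq table. Differences of log2 values were counted at 2-fold with Python 3.11.15, pandas 2.3.3 and numpy 2.4.6, and the steps were tested on simulated data. Loess used statsmodels 0.14.6 with span 0.4. With 1 array in each group no test exists, and so few arrays limit the precision.

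Named were the members, the 3 nearest profiles of each, listed partner, regulator and marker genes, Zbtb18, and genes beside the members on the chromosome, which were added later. The members and lists were chosen with earlier results of these data known. Alternatives were quantile, median and loess scaling, other probe sets, other filters and a 1.5-fold threshold.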

Additional observations from a re-analysis of the deposited data

How the results depend on the processing

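No paired analysis was possible because each group held 1 array, and leaving out a replicate was likewise not possible. Of the counts and medians over the troponin genes recomputed under the alternatives, 113 stayed within 1.5 times for counts, or within the robust standard deviation of all kept genes for medians, and 2 did not. Some of the 113 could not differ. All 8 members pass the main filter, so dropping the filter left their values unchanged, and centring shifts all genes of a comparison alike. The 113 are therefore not independent checks. The count of members at least 2-fold lower with shRp58 was 5, but 3 after quantile normalization and 4 by the median of all probe sets of a gene. It was 8 at a 1.5-fold threshold, where 2.25% of kept genes were lower by that much. Medians over members ran from 2.89 to 3.18 for day 0 minus growth medium, 1.58 to 1.75 for day 2 minus day 0, 1.85 to 2.02 for day 4 minus day 0, 0.20 to 0.29 for day 4 minus day 2 and -1.07 to -0.90 for shRp58 minus control vector. A filter at 9 log2 units removed Tnni3.

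The Tnni2 over Tnni1 ratio reversed with other Tnni2 probe sets, an alternative chosen after seeing the data. With 1438608_at it was -3.13 for day 0 minus growth medium, -0.61 for day 2 minus day 0, -0.56 for day 4 minus day 0, 1.06 for shRp58 minus control vector and -3.69 for day 4 minus growth medium. With 1438609_x_at these were -1.74, -0.040, -0.060, 0.20 and -1.80, and day 4 minus day 2 was -0.020; the cause was not tested. Dim signal limits Tnni3 and 1438608_at.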
